A study of Homo sapiens with 8 samples.

Results

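The 8 genes described here encode transcription factors of hepatocytes: HNF4A, FOXA1, FOXA2, FOXA3, CEBPA, CEBPB, ONECUT1 and PROX1. They were taken by name from a table of 26830 genes, and all 8 were found. The libraries came from cells labelled HEK293T, a human embryonic kidney line, grown from a single clone that carries the nuclease Cas9. The groups were 3 cultures with different lentiviral guide RNAs against METTL16 (sgMETTL16-1, sgMETTL16-2 and sgMETTL16-3) and 1 culture with a control guide (sgNS). Every culture was kept in blasticidin and puromycin and was given cycloheximide, which halts ribosomes, shortly before lysis. Under each guide name 2 libraries were made, of input RNA and of ribosome footprints, the RNA fragments of 17 to 34 nt that ribosomes shield from nuclease. METTL16 is an RNA methyltransferase, and the series asked how its loss affects translation. Values of the sgMETTL16 cultures are given in the order of the guide numbers.

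Hepatocyte identity is held by a small network of transcription factors that bind each other's genes as well as those of secreted liver proteins and liver enzymes. HNF4A, a nuclear receptor, is needed for most of the hepatocyte programme. FOXA1, FOXA2 and FOXA3 are forkhead proteins that can open closed chromatin, CEBPA and CEBPB are basic leucine zipper proteins of metabolism and the acute-phase response, ONECUT1 (HNF6) is a cut-homeodomain protein, and PROX1 is a homeodomain protein of the early liver bud.

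HNF4A is shown first because it was the most abundant member and because it is transcribed from separate upstream and downstream starts, which the table merges into 1 value per gene. RefSeq (GRCh38.p14) gave windows before the start for 6 of the 8 genes, 8 windows in all. The lines below give the 250 bases before each HNF4A start and before the FOXA1 start, 5′ to 3′ on the gene's own strand. Capitals mark matches, on either strand: ATCAAT (ONECUT1) in HNF4A, and TGTTTGC (FOXA) in FOXA1.
HNF4A upstream start, chr20:44355449-44355698, plus strand: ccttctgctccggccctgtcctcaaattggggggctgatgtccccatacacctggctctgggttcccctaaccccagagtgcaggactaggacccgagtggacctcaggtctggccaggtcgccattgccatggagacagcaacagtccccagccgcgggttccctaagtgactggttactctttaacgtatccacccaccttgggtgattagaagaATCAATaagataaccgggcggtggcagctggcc
HNF4A downstream start, chr20:44400989-44401238, plus strand: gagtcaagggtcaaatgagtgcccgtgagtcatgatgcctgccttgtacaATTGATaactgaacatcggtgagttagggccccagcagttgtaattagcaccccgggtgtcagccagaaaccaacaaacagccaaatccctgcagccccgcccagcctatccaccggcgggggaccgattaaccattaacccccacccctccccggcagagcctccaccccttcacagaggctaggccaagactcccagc
FOXA1, chr14:37595250-37595499, minus strand: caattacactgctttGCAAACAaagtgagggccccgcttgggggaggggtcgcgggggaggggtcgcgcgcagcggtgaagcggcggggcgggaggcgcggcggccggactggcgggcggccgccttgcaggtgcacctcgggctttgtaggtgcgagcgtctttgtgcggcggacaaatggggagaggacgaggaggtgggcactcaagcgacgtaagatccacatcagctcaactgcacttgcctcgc

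The window of the upstream HNF4A start held an ATCAAT match beginning 33 bases before the start. The downstream window held ATCAAT on the other strand, 200 bases before the start, and the FOXA1 window held TGTTTGC on the other strand, 235 bases before the start. Of 35116 windows of the same length in RefSeq, 5.58% held ATCAAT and 3.23% held TGTTTGC. The motif TATAAA, the TATA box, was in 3 of the 8 windows (CEBPA, FOXA3 and the inner CEBPB window) and in 10.7% of all windows. The other motifs searched had no match in these 8 windows: the direct repeat of nuclear receptors and CAAAGTCCA (HNF4A), TGTTTAC (FOXA) and TTGCNNAA (CEBP). A match describes letters in the window, and binding was not measured.

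All 8 genes were transcribed in every culture. The values are TPM, a share of all transcripts in a library scaled for transcript length, so genes can be ranked within a library. No read totals come with them and the depth is unknown. Protein-coding genes held 25.4%, 26.3% and 20.1% of input TPM in the sgMETTL16 cultures, against 20.3% in sgNS. They held 26.8%, 28.2% and 11.9% of footprint TPM in the sgMETTL16 libraries, against 26.9% in sgNS. The part of these shares in the members' values was not tested. HNF4A (chromosome 20, 44355699 to 44434596) was the highest member in each of the 4 inputs. It reached 100.0, 102.43 and 93.12 TPM in the sgMETTL16 cultures, against 77.71 TPM in sgNS. Its mean over the 4 inputs lay at the 96.2nd percentile of the 10967 genes tested in the input.

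The CEBP genes came next. CEBPB (chromosome 20, 50190583 to 50192690), the member most tied to acute-phase and stress signals, stood at 59.65, 80.55 and 79.11 TPM in the sgMETTL16 cultures, against 34.41 TPM in sgNS. CEBPA (chromosome 19, 33299934 to 33302534), which promotes hepatocyte metabolism and restrains division, stood at 60.18, 58.07 and 58.27 TPM in the sgMETTL16 cultures, against 46.39 TPM in sgNS. CEBPB exceeded CEBPA in sgMETTL16-2 and sgMETTL16-3 and lay below it in sgMETTL16-1 and sgNS, so the order of these neighbours was not fixed. CEBPB was the member with the widest spread over the 4 inputs (63.4 ± 21.6 TPM, SD, n = 4 cultures), and CEBPA varied little among the sgMETTL16 cultures (58.8 ± 1.16 TPM, SD, n = 3).

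FOXA3 (chromosome 19, 45864326 to 45873797), the forkhead member most typical of the mature liver, led the 3 FOXA genes in every input. Its values were 34.87, 28.19 and 28.76 TPM in the sgMETTL16 cultures, against 28.62 TPM in sgNS. FOXA2 (chromosome 20, 22580998 to 22585490), an early endoderm factor, stood at 24.65, 22.21 and 21.4 TPM in the sgMETTL16 cultures, against 26.65 TPM in sgNS. It was the only member lower in all 3 sgMETTL16 inputs than in sgNS on TPM as deposited. FOXA1 (chromosome 14, 37589552 to 37595249), which shares targets with FOXA2, stood at 22.75, 27.06 and 16.63 TPM in the sgMETTL16 cultures, against 16.4 TPM in sgNS.

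PROX1 (chromosome 1, 213983151 to 214041510) stood at 27.05, 27.2 and 18.28 TPM in the sgMETTL16 cultures, against 16.33 TPM in sgNS. ONECUT1 (chromosome 15, 52755053 to 52790336) was the lowest member in each input, at 20.72, 14.8 and 11.63 TPM in the sgMETTL16 cultures, against 12.66 TPM in sgNS. By mean over the sgMETTL16 inputs, HNF4A (98.5 ± 4.83 TPM), CEBPB (73.1 ± 11.7 TPM) and CEBPA (58.8 ± 1.16 TPM) stood above FOXA3 (30.6 ± 3.70 TPM, SD, n = 3 each). PROX1 (24.2 ± 5.11 TPM), FOXA2 (22.8 ± 1.69 TPM), FOXA1 (22.1 ± 5.24 TPM) and ONECUT1 (15.7 ± 4.61 TPM) followed, and the ranges of PROX1, FOXA2 and FOXA1 overlapped, and that of ONECUT1 overlapped those of PROX1 and FOXA1.

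**Figure D1:**
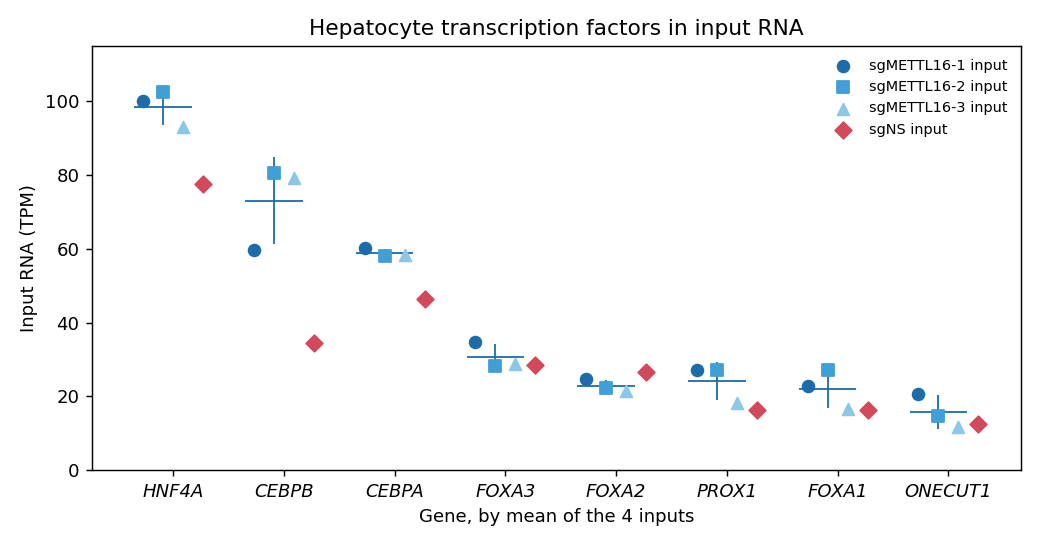
Input TPM of the 8 hepatocyte transcription factor genes, with a marker for each culture, and the mean and SD of the 3 sgMETTL16 cultures as horizontal and vertical lines. HNF4A is highest in every culture, at 77.71 to 102.43 TPM, and the sgNS marker of CEBPB, at 34.41 TPM, lies below all 3 sgMETTL16 markers.

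Other factors listed for the liver were present in part. Of 26 other transcription factors listed as liver-enriched, 10 reached 10 TPM in every input, and NR1I3 and NR5A2 stayed under 1 TPM throughout. The list was set by name, and whether its genes are confined to the liver was not tested. XBP1, among the 10, lay between 96.2 and 230 TPM. NR0B2 (SHP), a corepressor of nuclear receptors, lay between 116 and 189.8 TPM. GATA4, a partner of FOXA proteins in endoderm, lay between 18.5 and 24.0 TPM. Among 9 relatives from the members' own families none reached 10 TPM in all inputs, and HNF4G, PROX2, CEBPE and ONECUT3 had means under 1 TPM. ONECUT2 lay between 6.16 and 15.9 TPM and CEBPD between 7.26 and 13.3 TPM.

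Factors of other organs were mostly silent. Of 13 kidney lineage transcription factors in the table, 9 never reached 1 TPM in an input. They include PAX2 (0.04 TPM or less) and WT1 (0.07 TPM or less), which are defining factors of the developing kidney. WT1 nevertheless had footprints, at 20.4 and 7.06 TPM in sgMETTL16-1 and sgMETTL16-2, and was listed at 0 in the footprints of sgMETTL16-3 and sgNS. SALL1 was the highest of that list, at 8.01 to 12.8 TPM, and PAX8 was at 1.04 to 1.36 TPM. Of 11 factors of other endoderm organs, 10 were under 1 TPM in all inputs. The medians of the genes' mean input TPM were 26.9 for the 8 members, 7.33 for the other liver factors, 0.0475 for the kidney factors and 0.01 for the other endoderm factors.

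Markers listed for HEK293 cells were present only in part, and the identity of the line was not tested. Of 14 HEK293 markers 6 never reached 1 TPM in an input, of which NEFL, NEFM, VIM and STMN2 were listed at 0, while KRT8, KRT18 and TUBB3 exceeded 10 TPM throughout. The 0 listed for VIM cannot be read as absence, since its footprints stood at 85.2, 78.7 and 43.3 TPM in the sgMETTL16 libraries and 188 TPM in sgNS. The 35 liver genes listed as targets of such factors summed to 9620 to 14054 TPM in the sgMETTL16 cultures, against 8005 TPM in sgNS, on TPM as deposited. Of these 35 genes, 21 reached 10 TPM in every input and 7 stayed under 1 TPM throughout. APOA2 lay between 1797 and 2687 TPM in the inputs, and ALB between 354 and 1668 TPM. Bile duct and progenitor markers were also present: SOX9, at 65.7 to 88.7 TPM, and KRT19, at 157 to 498 TPM in the inputs, while CFTR was listed at 0. The 8 fibroblast markers summed to 4.61 to 5.68 TPM in the sgMETTL16 cultures, against 2.74 TPM in sgNS, on TPM as deposited. Of these markers 5 of 8 were listed at 0, and PDGFRB was the highest, at 2.61 to 5.21 TPM. In the blood list 6 of 9 markers were under 1 TPM, HBB was listed at 0, and the list's sum of 197 to 624 TPM in sgMETTL16 and 220.1 TPM in sgNS was almost all LYZ.

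**Figure D2:**
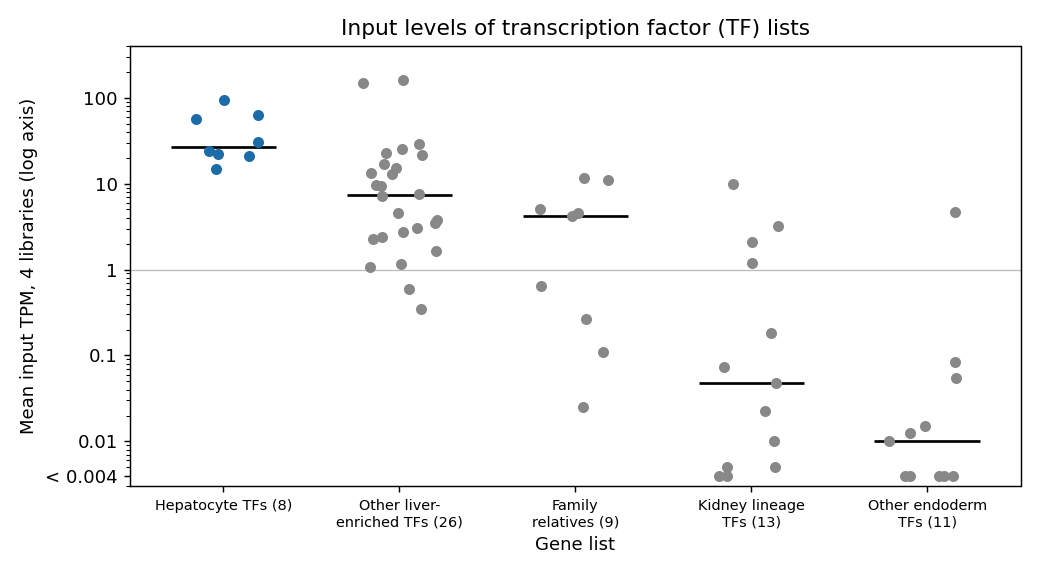
Mean TPM over the 4 inputs for each gene of 5 lists of transcription factors (TF), on a log axis, with the list median as a line; values under 0.004 are drawn at the bottom. All 8 members lie above 10 TPM, whereas 9 of 13 kidney lineage factors and 10 of 11 other endoderm factors lie under 1 TPM.

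The input comparison asked whether the RNA of these factors differed between sgMETTL16 and sgNS cells. No member passed the threshold (limma on log2(TPM + 1), Benjamini-Hochberg adjusted p under 0.05 over 10967 genes). None had an unadjusted p under 0.05, where 1226 of the 10967 genes did. Among all genes 2.83% passed, 1.58% as higher and 1.25% as lower. With 1 culture against 3, an exact permutation test of a single gene could not go below p = 0.25. In a bulk sample, fewer cells of a type and less RNA per cell cannot be told apart. METTL16 itself was at 4.72, 5.25 and 4.16 TPM in the sgMETTL16 cultures, against 5.31 TPM in sgNS (log2 change -0.68, SE 0.36, limma adjusted p = 0.482). Its footprints were listed at 0 in all 3 sgMETTL16 libraries, against 19.76 TPM in sgNS. Of the 9297 genes tested in the footprints, 31.2% lay below sgNS in all 3 sgMETTL16 libraries, which is a looser event than 0 in all 3. In the footprint fit 5.84% of these genes were called lower (limma), and all 543 of them were listed at 0 in all 3 sgMETTL16 libraries. The input did not show a loss of METTL16 mRNA past the threshold.

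For most members the direction depended on library scaling. On TPM as deposited 5 members (HNF4A, FOXA1, CEBPA, CEBPB and PROX1) were higher in all 3 sgMETTL16 inputs than in sgNS, but so were 64.1% of all genes tested, and the median gene stood 0.46 higher on the log2 scale. FOXA2 was lower in all 3, as were 5.37% of all genes. Once each library was centred on its median gene, CEBPB alone was higher in all 3 (23.4% of all genes were), and FOXA1, FOXA2 and FOXA3 were lower in all 3 (34.2% of all genes were). The median log2 change of the 8 members after centring was -0.19, beside -0.06 for all genes tested.

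CEBPB had the highest change of the members and FOXA2 the lowest. CEBPB was at 73.1 ± 11.7 TPM in sgMETTL16 (SD, n = 3) and 34.41 TPM in sgNS, a ratio of 2.12 as deposited. Centred log2 levels were 5.68, 5.96 and 6.55 in the sgMETTL16 cultures, against 5.54 in sgNS, so the groups did not overlap. After centring its log2 change was 0.52 (SE 0.40, 95% interval -0.27 to 1.31, limma adjusted p = 0.749), at the 92.1st percentile of changes over all genes. It was positive under all 12 alternative settings, and the smallest limma adjusted p among them was 0.175.

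FOXA2 was at 22.8 ± 1.69 TPM in sgMETTL16 (SD, n = 3) and 26.65 TPM in sgNS. Centred log2 levels were 4.44, 4.15 and 4.71 in the sgMETTL16 cultures, against 5.19 in sgNS, again with no overlap. The log2 change was -0.75 (SE 0.39, 95% interval -1.51 to 0.01, limma adjusted p = 0.459). It lay at the 5.41st percentile of all changes and was negative under every alternative setting, from -0.89 to -0.22. Without sgMETTL16-3 its change was -0.89 and it passed the threshold (limma adjusted p = 0.0496), so that 1 library decides the call.

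For HNF4A the log2 change was -0.19 (SE 0.41, 95% interval -0.998 to 0.62, limma adjusted p = 0.96), and it turned to 0.34 on TPM as deposited. CEBPA had the same change, -0.19, FOXA1 was at -0.14, ONECUT1 at -0.27 and FOXA3 at -0.44, and all of these turned positive on TPM as deposited (0.34, 0.39, 0.26 and 0.087). PROX1 was at -0.01 and changed sign with 5 of the settings. Across the 8 members the lowest interval end was -1.51 (FOXA2) and the highest 1.31 (CEBPB) on the log2 scale.

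**Figure D3:**
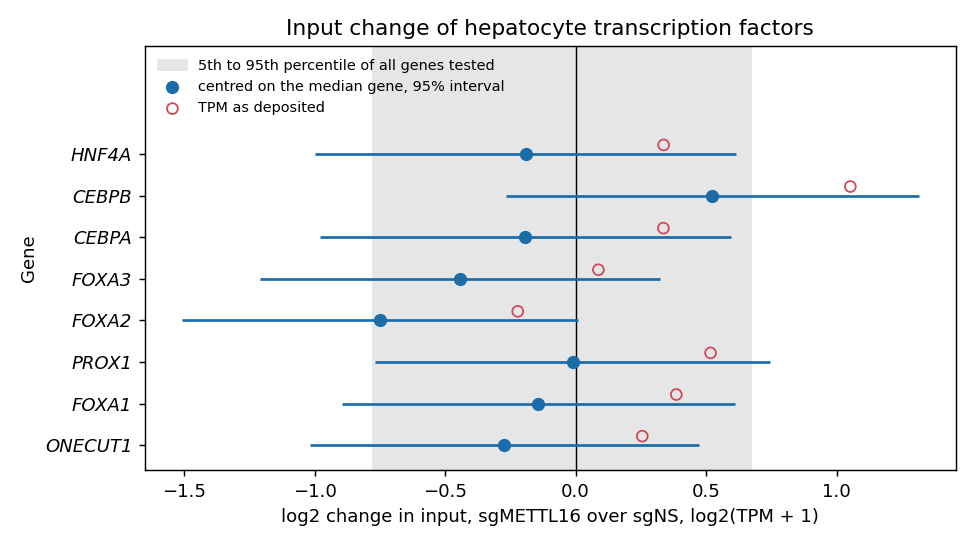
Log2 change in input RNA, sgMETTL16 over sgNS, for each member after centring on the median gene (filled, with the 95% interval) and on TPM as deposited (open); the grey band holds the 5th to 95th percentile of the 10967 genes tested. Every interval crosses 0, and 6 of the 8 members lie on opposite sides of 0 in the 2 scalings.

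Other genes of the liver network gave few calls in the input. None of the 24 tested liver-enriched transcription factors and none of the 5 tested family relatives passed (limma). An unadjusted p under 0.05 was found for 0 of the 24 and 1 of the 5, and for 1226 of all 10967 genes. The lists' median log2 changes were -0.20 and 0.37, in the same order. NR0B2 was at 0.08. Among the 28 tested liver target genes 2 passed, both higher, where 1.58% of all genes passed as higher. IGFBP1, which binds insulin-like growth factors in plasma and is a known FOXA target, stood at 329, 395 and 292 TPM in the sgMETTL16 cultures, against 42.2 TPM in sgNS (log2 change 2.43, SE 0.43, limma adjusted p = 3.29e-06). The glucose transporter gene SLC2A2 stood at 9.38, 12.8 and 4.49 TPM in the sgMETTL16 cultures, against 1.14 TPM in sgNS (log2 change 1.58, SE 0.36, limma adjusted p = 0.000945). The SLC2A2 call was lost with deposited TPM left uncentred (limma adjusted p = 0.259) and with sgMETTL16-1 left out (0.186), whereas IGFBP1 passed under every alternative setting. The bile duct and progenitor markers summed to 513 to 774 TPM in the sgMETTL16 inputs, against 259 TPM in sgNS, on TPM as deposited. Most of these sums was KRT19, at 364, 480 and 498 TPM in the sgMETTL16 cultures, against 157 TPM in sgNS. On that scale 64.1% of all genes tested were higher in all 3 sgMETTL16 inputs. The part of these markers in the members' values was not tested. Of the 7 tested, SPP1 passed (log2 change 1.54, SE 0.39, limma adjusted p = 0.00483). The SPP1 call was lost with uncentred TPM, over protein-coding genes only, and with sgMETTL16-1 or sgMETTL16-2 left out (limma adjusted p = 0.375, 0.0572, 0.074 and 0.137).

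The genes whose profile over the 4 inputs lay nearest to that of HNF4A were no liver factors. By Euclidean distance of centred log2(TPM + 1) among 3924 protein-coding genes with a mean input of 10 TPM or more, they were AP5S1 (0.0166), ATXN2L (0.0169) and LRP1 (0.0212), where the median distance was 0.415. AP5S1 is a subunit of an adaptor complex of vesicle traffic, and LRP1 is an endocytic receptor. ATXN2L, an RNA-binding protein, stood at 100.2, 101 and 92.9 TPM in the sgMETTL16 cultures, against 77.8 TPM in sgNS. Of the other members CEBPA was nearest to HNF4A, at rank 185 with a distance of 0.10, and CEBPB farthest, at rank 2991 with 0.724. With 4 libraries and no more, such likeness is a description.

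Footprints of these factors were often listed at 0. Of the 32 gene and library combinations, 14 had a value above 0. In a single library, 50.1% to 74.4% of the 3925 protein-coding genes with a mean input of 10 TPM or more had footprints. HNF4A, the most abundant member in the input, had footprints in sgMETTL16-2 alone, at 18.49 TPM, and was listed at 0 in the other 3 libraries. Among the 350 other protein-coding genes with a mean input at or above that of HNF4A, 14 (4%) had footprints in 1 library or none, and 67.4% had them in all 4. ONECUT1 had none in any library, as did 10.2% of the 3925 protein-coding genes with a mean input of 10 TPM or more. Each other member was set beside the protein-coding genes at or above its own mean input. The share with footprints in as few libraries or fewer was 19.7% for FOXA1, 22.6% for CEBPA and 36.7% for FOXA2. It was 37.6% for PROX1, 41.8% for CEBPB and 56.3% for FOXA3.

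CEBPB had the most footprints, at 57.51, 29.91 and 13.58 TPM in the sgMETTL16 cultures, against a listing at 0 in sgNS. FOXA3 stood at 15.26, 10.58 and 14.42 TPM in the sgMETTL16 cultures, against a listing at 0 in sgNS. FOXA2 stood at 12.56 and 17.42 TPM in sgMETTL16-1 and sgMETTL16-2, and FOXA1 at 8.92 TPM in sgMETTL16-1, and both were listed at 0 elsewhere. CEBPA and PROX1 had the opposite order. CEBPA footprints were at 11.49 TPM in sgMETTL16-1 and listed at 0 in sgMETTL16-2 and sgMETTL16-3, against 43.51 TPM in sgNS. PROX1 footprints were at 2.45 TPM in sgMETTL16-2 and listed at 0 in sgMETTL16-1 and sgMETTL16-3, against 13.35 TPM in sgNS.

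**Figure D4:**
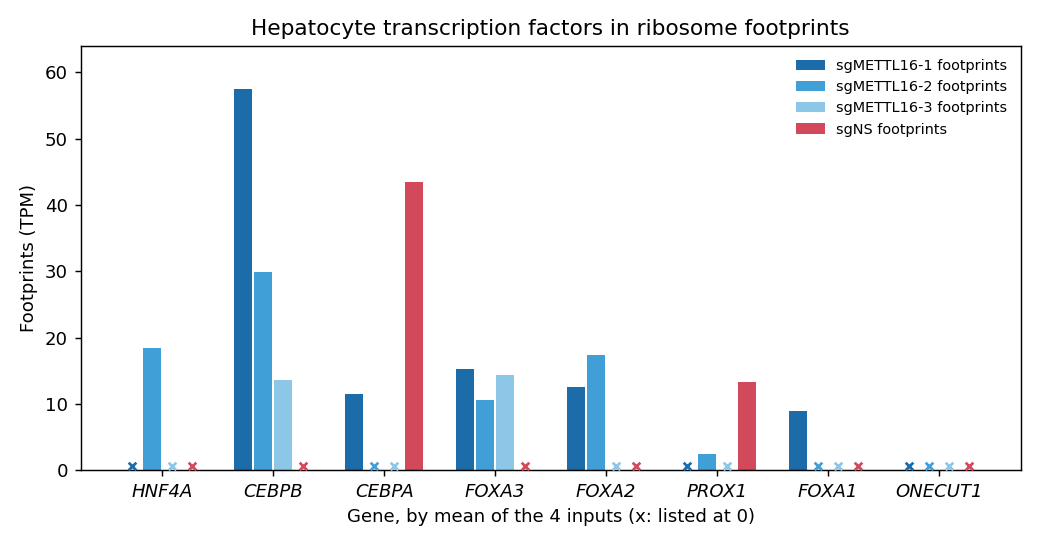
Footprint TPM of the 8 members, as a bar for each culture and a cross where the gene is listed at 0. CEBPB and FOXA3 have bars in the 3 sgMETTL16 cultures and none in sgNS, CEBPA and PROX1 are highest in sgNS, at 43.51 and 13.35 TPM, and ONECUT1 has no bar.

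The number of members with footprints was 5, 5 and 2 of 8 in the sgMETTL16 cultures, against 2 of 8 in sgNS. Of the 3925 protein-coding genes at 10 TPM or more in the input, 65.7%, 74.4% and 50.1% had footprints in the same sgMETTL16 libraries, against 52.1% in sgNS. The part of depth in the members' values was not tested.

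The footprint values fell on steps. In a pair of libraries, the ratio of a gene's TPM values is the ratio of its reads times a constant, so genes with equal reads in both share 1 ratio. One ratio recurred in each of the 6 pairs and was taken as that of equal reads. It was shared by 23.6% to 33.7% of the genes above 0 in both (within 0.02 on the natural log scale). It was 1.89 for sgNS over sgMETTL16-1, 2.73 for sgNS over sgMETTL16-2 and 2.01 for sgNS over sgMETTL16-3, so a read was worth most TPM in sgNS. With ratios of whole numbers up to 4 added, 66.0% to 79.6% of genes were accounted for.

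The members fell on these steps in all 9 pairs of values, at most 0.0021 away on the natural log scale. The CEBPB values of sgMETTL16-1, sgMETTL16-2 and sgMETTL16-3 stood as 4 to 3 to 1 in reads. FOXA3 had equal reads in the 3 sgMETTL16 libraries. FOXA2 had 1 part in sgMETTL16-1 to 2 in sgMETTL16-2. CEBPA had 1 part in sgMETTL16-1 to 2 in sgNS, and PROX1 had 1 part in sgMETTL16-2 to 2 in sgNS. Ratios give reads only up to a common factor. At the smallest whole numbers, the 43.51 TPM of CEBPA in sgNS would be 2 reads and the 57.51 TPM of CEBPB in sgMETTL16-1 would be 4.

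The footprint comparison asked whether ribosome occupancy of these mRNAs differed between the guides. Of the 7 members with a mean of 1 TPM or more in the footprints, none passed (limma on log2 of scaled TPM + 1, adjusted over 9297 genes). An unadjusted p under 0.05 was found for 2 of them (CEBPB and FOXA3), and for 1152 of the 9297 genes. The limma adjusted p was 0.11 for CEBPB and 0.175 for FOXA3, both at 0 in sgNS, so no fold is given. CEBPA had a log2 change of -3.88 (SE 2.05, 95% interval -10.63 to 2.88, limma adjusted p = 0.695) and PROX1 of -2.87 (SE 1.05, 95% interval -6.33 to 0.59, limma adjusted p = 0.56). These sizes depended on the settings: CEBPA reached -6.09 and PROX1 -5.12 with a pseudocount of 0.1, -6.39 and -5.38 after centring on the median gene, and PROX1 -4.34 over protein-coding genes only. Among all genes 6.54% passed, 0.699% as higher and 5.84% as lower, but of these 608 genes 543 were listed at 0 in all 3 sgMETTL16 libraries and 64 in sgNS, and none passed when the fit kept only genes above 0 in all 4 libraries. Of the 19 liver-enriched factors tested 1 passed, NFIC (limma adjusted p = 0.0329), with no footprints listed in any sgMETTL16 library. Of the 27 liver target genes tested 1 passed as higher, FABP1 (limma adjusted p = 0.0329), listed at 0 in the sgNS footprints. Members above sgNS in all 3 sgMETTL16 footprint libraries numbered 2 (7.68% of all genes tested), and members below it 2 (31.2%). With a pseudocount of 0.1 CEBPB passed (limma adjusted p = 0.0393).

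Translation efficiency, the footprint to input ratio, was compared in a single model of both kinds of library, as an interaction with the guide. The model took a single spread per gene over inputs and footprints, without pairing them by culture. Its p-values thus rest in part on the spread of the inputs. Unadjusted p was 0.0038 for CEBPB and 0.0037 for FOXA3 here, against 0.0084 and 0.0157 in the footprint fit (limma). No member of the 7 tested passed over 8002 genes (limma), where 0.812% of all genes did (0.587% higher, 0.225% lower). An unadjusted p under 0.05 was found for 937 of the 8002 genes, CEBPB and FOXA3 among them (limma adjusted p = 0.0749 for each). Both passed with a pseudocount of 0.1 or 0.5 and over protein-coding genes only (smallest limma adjusted p = 0.0174, 0.0484 and 0.0356). With the culture as a replicate block the smallest limma adjusted p of a member was 0.495, and 0 of all genes passed, against 65 without it. CEBPA was at -3.66 (SE 2.06, limma adjusted p = 0.815) and PROX1 at -2.85 (SE 1.29, limma adjusted p = 0.556), and with a pseudocount of 0.1 they were at -5.87 and -5.09. Of the 25 tested liver target genes FABP1 and APOC3 passed (limma adjusted p = 0.0286 and 0.0446). Both were listed at 0 in the sgNS footprints, as were 47 of the 65 genes called, and the other 18 were at 0 in all 3 sgMETTL16 libraries.

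Footprints relative to input differed among the members and depended on the culture. Over all 4 cultures, the sum of footprint TPM over the sum of input TPM was 0.398 for CEBPB, 0.334 for FOXA3, 0.316 for FOXA2, 0.247 for CEBPA, 0.178 for PROX1, 0.108 for FOXA1, 0.0495 for HNF4A and 0 for ONECUT1. The median of the 3925 protein-coding genes with a mean input of 10 TPM or more was 0.471, so all 8 members lay below it, CEBPB at the 44.2nd percentile and HNF4A at the 11.4th, with 447 genes lower than HNF4A and 401 at 0. Without sgNS the ratios of CEBPB (0.461), FOXA2 (0.439) and FOXA3 (0.438) lay just above the median of 0.433, while CEBPA was at 0.0651 and PROX1 at 0.0338, below FOXA1 at 0.134. A single library also carried other values: without sgMETTL16-1 CEBPB was at 0.224 and FOXA1 at 0, and without sgMETTL16-2 FOXA2 was at 0.173 and HNF4A at 0.

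Within single cultures, ratios could be formed for 14 values above 0. CEBPB stood at 0.964 in sgMETTL16-1, above the median of 0.817 for protein-coding genes with footprints there, and FOXA2 at 0.784 in sgMETTL16-2, above the median of 0.726. The other 12 values lay below the median of their culture, down to 0.0901 for PROX1 in sgMETTL16-2. Those medians cover only genes with footprints in the culture and were not matched for input level. Where a value rests on few reads, a gene of high input has a low ratio, so these places do not by themselves measure translation. HNF4A, at 0.181 in sgMETTL16-2, lay at the 7.53rd percentile there. TPM divides by the length of the whole transcript in both kinds of library, whereas footprints come from the translated part, and the lengths of those parts were not used here.

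**Figure D5:**
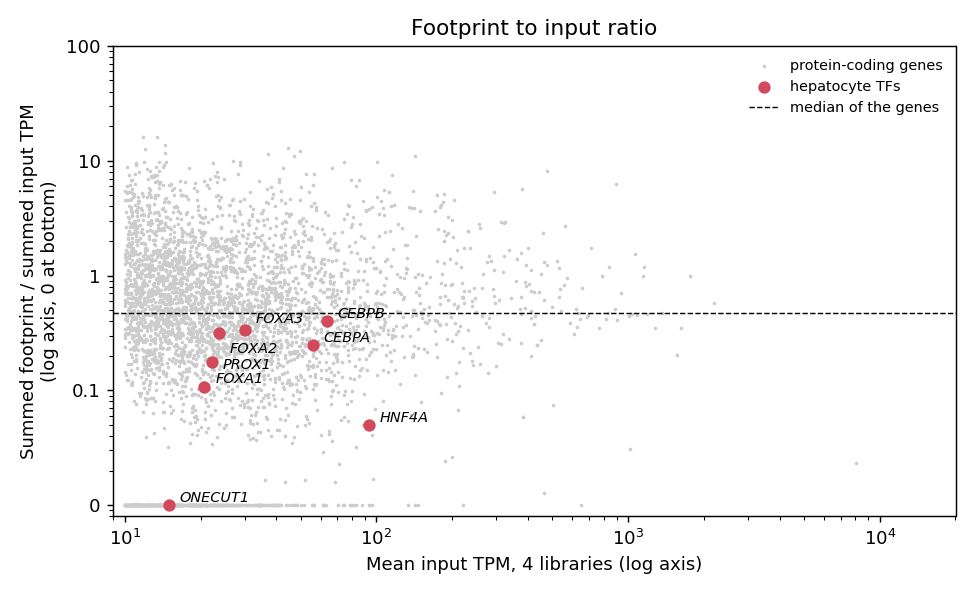
Summed footprint over summed input TPM against mean input TPM, both on log axes with a ratio of 0 at the bottom, for 3925 protein-coding genes (grey) and the 8 members (red); the dashed line is the median of the genes, 0.471. All 8 members lie below the line when the 4 cultures are summed, with CEBPB nearest to it at 0.398 and HNF4A at 0.0495; without sgNS, CEBPB, FOXA2 and FOXA3 would lie just above their median.

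Genes that overlap the members were low. The lncRNA genes HNF4A-AS1 (0.89 to 2.07 TPM), CEBPB-AS1 (0.62 to 0.85 TPM) and PROX1-AS1 (0.18 to 0.35 TPM) overlap their namesakes in RefSeq, and were listed at 0 in all footprints. The strand setting of the counting is not given in the sources used here, so reads of such pairs cannot be told apart.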

How the data were processed

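Input RNA and ribosome footprints of 4 cultures were sequenced as 51-base single-end reads after depletion of ribosomal RNA, per the labels' protocols. The submitters' processing notes name STAR, with no version, RSEM 1.2.31 and GRCh38 as the authors' tools and build. A single TPM value per gene symbol was deposited. The values carry no read totals, so no counting intervals were computed. Of the symbols, 23987 matched RefSeq (GRCh38.p14) by name, 1395 by an older name and 1448 not at all. Of the genes, 30% to 33% were listed at 0 in an input and 74.9% to 83.7% in a footprint library.

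Models were fitted in R 4.3.3 with limma 3.58.1, using log2(TPM + 1) with an intensity trend, for genes with a mean of 1 TPM or more, and p-values were adjusted by Benjamini-Hochberg over all genes tested. Inputs were centred on the median tested gene. Footprints, and both kinds in the translation efficiency fit, were multiplied by a library factor from genes above 0 in all 4 libraries of a kind, which keeps 0 at 0. Fits were also run on simulated data with normal noise and seeded changes larger than any member's input change. Such data lack the steps and the values of 0 of the footprints, so they do not show how the fits treat those. Since sgNS has 1 culture, its spread was taken to equal that of the sgMETTL16 cultures. These carry different guides, so p-values rest on the spread between these samples, guides included. In the input fit limma took each gene's spread from the trend over all genes and gave the gene's own spread no weight. CEBPA and CEBPB, with SDs of 1.16 and 11.7 TPM among the sgMETTL16 inputs, thus had SEs of 0.402 and 0.403. Input intervals and p-values of a member do not measure that member's own spread. With a pseudocount of 1, log2 changes of low genes come out too small.

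Input and footprint libraries that share a guide name in the labels were taken as 1 culture, which the labels do not say in words. Their deviations from the sgMETTL16 means correlated at 0.0461, -0.00173 and 0.0253 across 8002 genes, which are not independent replicates, and those of libraries with different guides at -0.0624 to 0.0355, so the values do not show the pairing. The text names the 8 members, METTL16, the 3 genes nearest to HNF4A, and, from each list, up to 6 genes by level and 4 by smallest input p. List genes named for being near 0 or for passing in footprints were chosen after their values were seen. The members and lists were chosen with earlier results of these data known. The read ratios, and the footprint to input ratios with a culture left out, were added after the data were seen.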

Additional observations from a re-analysis of the deposited data

How the results depend on the processing

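No member passed in the input under 11 of 12 alternatives, FOXA2 without sgMETTL16-3 being the exception. On TPM as deposited the input changes of HNF4A (0.34), FOXA1 (0.39), FOXA3 (0.087), CEBPA (0.34), ONECUT1 (0.26) and PROX1 (0.52) turned positive, while the median gene moved to 0.46. PROX1 also turned positive with no filter (0.13), a mean of 5 TPM or more (0.037) and quantile normalization (0.089), and it lay at -0.047 to 0.027 with a sgMETTL16 culture left out. Input calls over all genes numbered 310, but 23 on TPM as deposited (22 higher, 1 lower, against 173 and 137), 532 with quantile normalization, and 110 to 664 with a sgMETTL16 culture left out, which gave 0 to 1 member called.

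Footprint calls over all genes numbered 608, but 335 at a mean of 5 TPM or more, and 0 with no trend, with any sgMETTL16 culture left out, after centring on the median tested gene, or over genes above 0 in all 4 footprint libraries (an alternative chosen after seeing the data). A pseudocount of 0.1 gave 1 member called, CEBPB. Translation efficiency calls numbered 65, but 724 and 341 with pseudocounts of 0.1 and 0.5, 472 with no filter, 144 at a mean of 5 TPM or more, 14 on TPM as deposited, 148 with quantile normalization, 519 over protein-coding genes only and 8 with no trend. They numbered 0 with any sgMETTL16 culture left out, after centring on the median tested gene, and with the replicate block. Both pseudocounts and protein-coding genes only gave 2 members called, CEBPB and FOXA3. The cause of these shifts was not tested. Footprint depth is unknown, and 74.9% to 83.7% of genes were listed at 0 in a footprint library, which limits every statement on footprints.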
